A study of Mus musculus with 12 samples.

Results

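Oxidative phosphorylation genes encode the subunits of the respiratory complexes I to IV and of ATP synthase (complex V). They were taken from the deposited count table as protein-coding genes whose symbol names a complex I to V subunit, which gave 94 of the 25210 genes. Of these, 82 lie in the nuclear genome and 12 in the mitochondrial genome, and mt-Nd4l was not analysed here. The samples were primary mammary epithelial organoids from virgin female mice of the FVB/N strain, aged 8 to 11 weeks. Matrigel of reduced growth factor content and minimal medium carried them through 7 days of treatment. The medium held CHIR99021 (1, 1.5 or 3 µM) or only DMSO as vehicle. CHIR99021 blocks the kinase GSK3 and so raises WNT signalling through β-catenin. The 3 replicates were cultures from 3 different animals, and every culture was split over the 4 treatments, so each group had 3 libraries of polyadenylated RNA and the study 12. All groups shared strain, matrix and medium, and no group carried a transgene.

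The respiratory chain moves electrons from NADH through complex I, or from succinate through complex II, by way of ubiquinone to complex III, then through cytochrome c to complex IV. Complexes I, III and IV pump protons, and complex V lets them return to make ATP. Mitochondrial DNA encodes core subunits of complexes I, III, IV and V, transcribed inside the organelle as long precursors that are cut into messengers. All other subunits, and the whole of complex II, are nuclear genes whose products are imported, so 2 genomes must supply each mixed complex.

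Library totals ran from 10129264 to 24485855 counts. The organoids held RNA of cells other than epithelium. Summed over 5 adipocyte markers (Adipoq, Plin1, Fabp4, Cidec, Lep) the level was 5802 CPM, the read count scaled to a common library size, in DMSO (range 3375 to 8990), and its group means at the rising doses were 2419, 820 and 133 CPM (range 36.2 to 237 at the last). At 3 µM, 5 of these 5 markers fell and none was at 0 in all libraries. The sum of 6 striated muscle markers went from 165 CPM (range 5.42 to 379) to 20.7 CPM (range 7.76 to 44.6), and that of 6 fibroblast markers from 9633 to 1857 CPM with overlapping ranges. The sum of 6 squamous epidermis markers rose from 7.39 to 10851 CPM, with 6 of 6 higher. The 3 µM library of replicate 3 stood apart, with a squamous sum of 1259 CPM against 17506 and 13788 CPM in the libraries of replicates 1 and 2. In such bulk samples fewer cells of a type and less RNA per cell cannot be told apart.

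The mitochondrial members made up 2.28%, 2.55% and 1.77% of all counts in the DMSO libraries of replicates 1, 2 and 3. The shares were 2.52%, 2.55% and 2.04% at 1 µM, 2.87%, 2.99% and 2.38% at 1.5 µM, and 2.51%, 2.43% and 2.04% at 3 µM. Replicate 3 had the lowest share in each group, and at 1.5 µM every culture was above its own DMSO value. The nuclear members, 82 genes together, took 0.954%, 1.07% and 0.803% of counts in DMSO and 0.923%, 0.912% and 0.731% at 1 µM. Their shares were 0.953%, 0.941% and 0.825% at 1.5 µM and 1.04%, 1.11% and 0.808% at 3 µM. These ranges overlapped between all groups.

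The ratio of mitochondrial to nuclear counts within a library needs no scaling between libraries, and it separated the middle doses from both ends. It was 2.39, 2.39 and 2.21 in DMSO, 2.73, 2.79 and 2.79 at 1 µM, 3.01, 3.17 and 2.89 at 1.5 µM, and 2.41, 2.20 and 2.52 at 3 µM. The 1 µM and 1.5 µM libraries did not overlap with each other or with the DMSO and 3 µM libraries, while DMSO and 3 µM overlapped. However, mt-Co1, whose count is uncertain, made up 31.3% of mitochondrial counts in replicate 3 of 1.5 µM and 26.8% in replicates 1 and 2. The separation of 1 from 1.5 µM rests in part on this gene. On the log2 scale the ratio stood 0.25 above DMSO at 1 µM, 0.38 above at 1.5 µM and 0.03 above at 3 µM. Leaving out any 1 library of the groups compared gave ranges of 0.22 to 0.27, 0.34 to 0.41 and −0.01 to 0.08. No test was made of a sum over chosen genes.

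**Figure D1:**
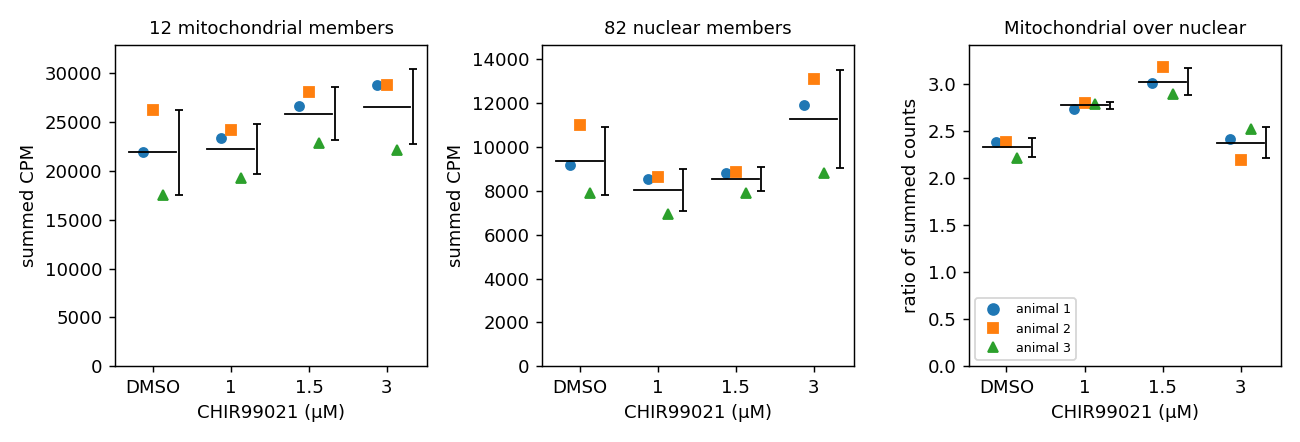
Summed CPM of the 12 mitochondrial members (left) and the 82 nuclear members (middle), and the ratio of the summed counts (right), against CHIR99021 dose in µM. Points are libraries marked by animal, lines are group means and bars are the SD (n = 3). The ratio is highest at 1.5 µM, between 2.89 and 3.17, and at 3 µM lies between 2.20 and 2.52, beside DMSO.

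Single genes were tested with edgeR's quasi-likelihood test, with p-values adjusted by Benjamini-Hochberg over the 15316 genes that passed a filter on low counts, and a gene was called at an adjusted p under 0.05. Of the members, 92 passed the filter, 81 nuclear and 11 mitochondrial. Cox8b (highest count 34) and mt-Co3 (highest count 4) did not. Fitting the animal as a replicate block raised the calls for all genes, and its counts stand beside the others.

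At 1 µM, edgeR called 0 of 81 nuclear and 0 of 11 mitochondrial members, with 0.242% of all genes called. At an unadjusted p under 0.05 there were 6 nuclear and 0 mitochondrial members, and DESeq2 called 0 and 0. The nuclear log2 fold changes were nevertheless mostly negative, 76 of 81 below 0 with a median of −0.24, where the median of all genes was −0.00, and the nuclear median was −0.16 with library size only. By direction, 0.189% of all genes rose and 0.0522% fell. Under the replicate block 9 nuclear members fell and 0 rose, where 5.61% of all genes were called, 2.55% higher and 3.06% lower.

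At 1.5 µM, 1 nuclear member rose and 6 fell, which is 8.64% of those tested where 27.3% of all genes were called, 15.4% higher and 11.8% lower. The replicate block gave 1 higher and 27 lower, where 46.7% of all genes were called, 22.3% higher and 24.3% lower. The nuclear median log2 fold change was −0.19, and −0.11 with library size only. Those that fell were 5 accessory subunits of complex I (Ndufs5, Ndufb3, Ndufv3, Ndufa2 and Ndufa13) and Cox7a1, of which Ndufs5 alone was called without any 1 library. Without DMSO replicate 2 the adjusted p was 0.138 for Ndufb3, 0.127 for Ndufv3, 0.0954 for Ndufa2 and 0.0577 for Ndufa13 (edgeR). Without replicates 1, 2 and 3 of 1.5 µM in turn it was 0.11, 0.1 and 0.0973 for Ndufb3 and 0.0652, 0.0754 and 0.0928 for Ndufa2. Ndufv3 was lost without replicate 1 or 2 of 1.5 µM (0.144 and 0.111) and Ndufa13 without replicate 3 (0.06). Ndufb3 and Ndufv3 were also lost without replicate 1 (0.0597 and 0.0551) or replicate 2 of 1 µM (0.0563 and 0.0507), and Ndufb3 without replicate 1 of 3 µM (0.0527). Ndufs5, an accessory subunit of complex I on the side of the intermembrane space, was at 23.3, 33.5 and 20.8 CPM in DMSO and 16.1, 16.5 and 13.9 CPM at 1.5 µM. These values did not overlap, and Ndufs5 fell by 0.73 on the log2 scale (SE 0.18, adjusted p = 0.0128, edgeR). The processed pseudogene BC002163 shares 21.7% of the 50-base stretches of Ndufs5, so its count is uncertain. Of the 11 mitochondrial members tested, 0 were called by edgeR and 0 by DESeq2, and 0 had an unadjusted p under 0.05. All 11 log2 fold changes were above 0, where 7631 of all 15316 genes were, with a median of 0.23, and 0.30 with library size only. The median was 0.03 without DMSO replicate 3 and 0.39 without DMSO replicate 2. These fits did not use the block and so set unlike animals against each other. Leaving out single libraries took mt-Nd1, mt-Nd3 and mt-Nd5 as low as −0.03, −0.01 and −0.04. With the replicate block mt-Cytb alone was called (log2 fold change 0.32, adjusted p = 0.0309, edgeR).

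At 3 µM, 21 nuclear members rose and 5 fell against DMSO, 32.1% of those tested, where 57.5% of all genes were called. Under the replicate block 40 rose and 7 fell, where 68.9% of all genes were called, 34.1% higher and 34.8% lower. The share of nuclear members that rose, 25.9%, was near the 29.9% of all genes that rose, and the share that fell, 6.17%, was below the 27.7% of all genes. The nuclear median log2 fold change was 0.28 and that of all genes −0.03. This split depended on scaling between libraries. Scaled by library size only, which moved the median of all genes to −0.23, 7 nuclear members were higher and 12 lower, with a nuclear median of 0.08. The nuclear median stood above that of all genes under both scalings. A change of scaling moves all genes of a library alike, so this is not separate support. Without the 3 µM library of replicate 3, 37 rose and 5 fell. Without replicate 3 of DMSO the counts were 7 and 4, without replicate 1 of 3 µM 9 and 4, and without replicate 2 of 3 µM 7 and 5.

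Between neighbouring doses the step from 1.5 to 3 µM held nearly all of the calls. From 1 to 1.5 µM edgeR called 0 nuclear and 0 mitochondrial members, DESeq2 0 and 0, and 1 nuclear and 0 mitochondrial members had an unadjusted p under 0.05, where 5.43% of all genes were called, 4.43% higher and 0.992% lower. The replicate block gave 2 nuclear members lower, where 21.9% of all genes were called, 11.3% higher and 10.5% lower. From 1.5 to 3 µM, 23 nuclear members rose and 2 fell, 30.9% against 29.7% of all genes called. The nuclear share that rose was 28.4%, where 17% of all genes rose and 12.7% fell. Under the replicate block 59 rose and 2 fell, where 46.7% of all genes were called, 24.7% higher and 22% lower. Scaled by library size only, which moved the median of all genes to −0.28, 4 rose and 3 fell. Without any 1 library of the 1.5 and 3 µM groups other than replicate 3 of 3 µM, between 9 and 12 nuclear members were called, and without that library 55 were. Of the 11 mitochondrial members 0 were called over this step by edgeR, 0 by DESeq2, and 0 had an unadjusted p under 0.05, with a median of 0.03, and −0.26 with library size only. The 1.5 and 3 µM comparisons with DMSO share the DMSO libraries, and both steps share the 1.5 µM libraries.

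**Figure D2:**
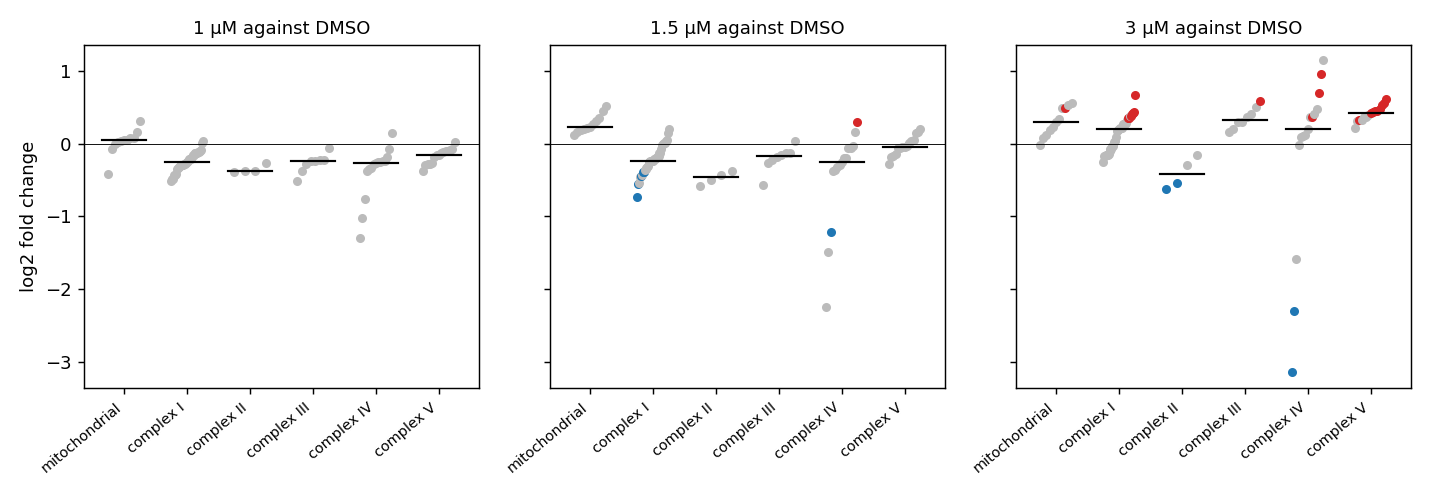
Log2 fold change against DMSO for each tested member of complexes I to V, with the mitochondrial members in their own column, at 1, 1.5 and 3 µM. Points are genes, red where called higher, blue where called lower and grey otherwise, and lines are medians. At 3 µM the medians were 0.42 for complex V and −0.42 for complex II, and 0.21 and −0.62 with library size only. Ndufa4, Ndufa4l2 and the 2 genes Atp5s and Atp5sl are not drawn.

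Complex I, the NADH dehydrogenase, had 35 nuclear members tested, of which 7 rose and 0 fell at 3 µM, 20% against 29.9% of all genes higher. The replicate block gave 13 higher and 1 lower, where 34.1% of all genes rose and 34.8% fell, and library size only 1 higher and 4 lower, with a median of −0.01 in place of 0.20. The core subunits Ndufs1, Ndufs3, Ndufs7, Ndufs8, Ndufv1 and Ndufv2 had log2 fold changes from −0.16 (Ndufs1) to 0.28 (Ndufs7), none called, and Ndufs7 was called with the replicate block (adjusted p = 0.00842, edgeR). The members that rose were accessory subunits, among them Ndufs6, which carries a zinc site. Ndufs6 was at 38.8, 33.6 and 29.1 CPM in DMSO and at 54.2, 62.3 and 44.7 CPM at 3 µM. These values did not overlap and gave a log2 fold change of 0.67 (SE 0.15, adjusted p = 0.00299, edgeR). Ndufs6 overlaps Mrpl36 on the other strand by 30 bases, and its levels at 1 and 1.5 µM lay between 27.3 and 36.6 CPM.

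Complex II, succinate dehydrogenase, is the only complex with no mitochondrial subunit and also works in the citric acid cycle. Sdha, its flavoprotein (GRCm38 chr13:74322254-74350280), was at 341, 456 and 292 CPM in DMSO, 296, 316 and 228 at 1 µM, 269, 278 and 227 at 1.5 µM and 267, 272 and 208 at 3 µM. All 3 µM values lay below all DMSO values, and Sdha fell by 0.54 on the log2 scale (SE 0.19, adjusted p = 0.0281, edgeR). Sdhb, the iron-sulfur subunit (chr4:140961203-140979193), was at 109, 143 and 92.3 CPM in DMSO and at 76.8, 89.6 and 57.7 CPM at 3 µM. It fell by 0.62 (SE 0.21, adjusted p = 0.0271, edgeR), again without overlap. So 2 of the 4 members fell, 50% against 27.7% of all genes. The membrane anchors Sdhc and Sdhd had log2 fold changes of −0.16 (adjusted p = 0.338, edgeR) and −0.29 (adjusted p = 0.214, edgeR), and with the replicate block Sdhd fell as well (adjusted p = 0.0335, edgeR). At 1.5 µM the 4 members had log2 fold changes from −0.58 to −0.37 and were all called with the replicate block, where 24.3% of all genes fell. Without the block, none had an adjusted p under 0.05, but Sdha, Sdhb and Sdhc did without DMSO replicate 3 (0.0328, 0.035 and 0.0303) and Sdhb, Sdhc and Sdhd without replicate 3 of 3 µM (0.0356, 0.0449 and 0.0468, edgeR).

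In the fit without the replicate block, which does not pair the libraries of an animal, the calls on Sdha and Sdhb at 3 µM depended on single libraries. With the block 3 of the 4 complex II genes were lower at 3 µM, where 34.8% of all genes were lower, and no library was left out of that fit. Without DMSO replicate 2 the log2 fold change at 3 µM was −0.37 for Sdha (adjusted p = 0.105, edgeR) and −0.45 for Sdhb (adjusted p = 0.0983, edgeR). Without replicate 3 of 3 µM it was −0.45 (adjusted p = 0.0796, edgeR) and −0.49 (adjusted p = 0.0763, edgeR), and without replicate 1 of 3 µM Sdhb had an adjusted p of 0.0537 (edgeR). The median of the 4 genes was −0.42 with the main scaling and −0.62 with library size only. Sdha overlaps the antisense gene Gm16125 by 339 bases, and the sources used here do not give the strand setting of the counting.

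Set against the other nuclear complexes in the same library, complex II took a smaller part at each higher dose. Its summed CPM was 0.0828, 0.0935 and 0.0851 of that of complexes I, III, IV and V in DMSO, 0.0779, 0.0815 and 0.0774 at 1 µM, 0.0683, 0.0708 and 0.0655 at 1.5 µM, and 0.0522, 0.0515 and 0.0549 at 3 µM. The 4 groups did not overlap, and the order held in each of the 3 cultures. From 1.5 to 3 µM the complex II sum itself was 532 ± 51.0 and 547 ± 91.4 CPM (SD, n = 3), while the means of complexes I, III, IV and V went from 1936, 893, 1302 and 3659 to 2468, 1292, 1830 and 4798 CPM. Over that step the median log2 fold change of complex II was 0.05, and −0.23 with library size only, where the median of all genes was −0.28. The group means of the adipocyte marker sum went in the same order, and so did those of endothelium (358, 187, 87.4 and 51.3 CPM), striated muscle and fibroblast markers. Those of luminal, macrophage and brown fat markers did not. Basal (2477 CPM in DMSO and 24725 CPM at 3 µM) and squamous sums rose at each dose. DMSO replicate 2, with the highest Sdha and Sdhb, also had the highest adipocyte sum of 8990 CPM. Among the DMSO libraries it was also highest in the sums of complexes I, III, IV and V. In DMSO, at 1 µM and at 1.5 µM the ratio was highest in replicate 2, which also had the highest adipocyte sum (8990, 3554 and 1273 CPM). At 3 µM the ratio was highest in replicate 3, with the lowest adipocyte sum (36.2 CPM), and lowest in replicate 2, with the highest (237 CPM). The part of adipocytes, or of any other cell type, in the order of the groups was not tested.

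**Figure D3:**
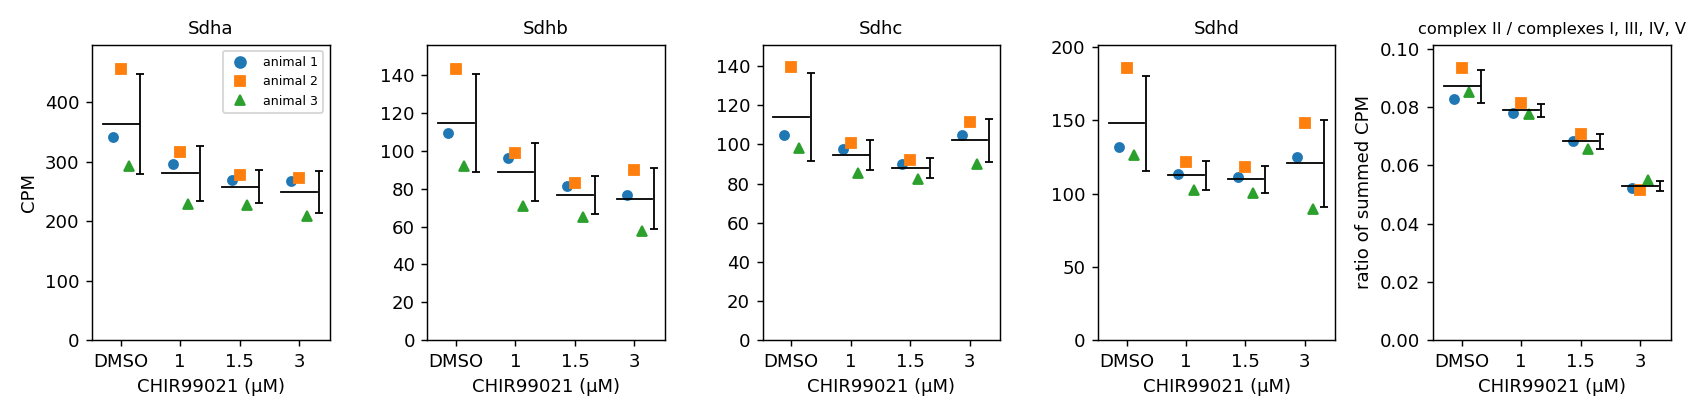
CPM of the 4 complex II genes and the ratio of summed complex II CPM to that of complexes I, III, IV and V, against CHIR99021 dose in µM. Points are libraries marked by animal, lines are means and bars are the SD (n = 3). The ratio lies between 0.0828 and 0.0935 in DMSO and between 0.0515 and 0.0549 at 3 µM.

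Complex III, the cytochrome bc1 complex, had 8 nuclear members tested, with a median of 0.33 at 3 µM (0.13 with library size only), of which 1 rose against DMSO (12.5% against 29.9% of all genes) and 4 rose against 1.5 µM (50% against 17%). The replicate block gave 7 higher against DMSO and 8 against 1.5 µM, where 34.1% and 24.7% of all genes rose, and library size only 1 and 1. Uqcrh, the acidic hinge protein beside cytochrome c1, was at 150, 169 and 141 CPM in DMSO and 241, 255 and 198 CPM at 3 µM. Its values did not overlap, and it rose by 0.60 on the log2 scale (SE 0.11, adjusted p = 0.000887, edgeR). At 1 and 1.5 µM it lay between 136 and 160 CPM. Uqcrh overlaps the antisense gene Gm12854 by 297 bases. Uqcrfs1, the Rieske iron-sulfur protein, had a log2 fold change of 0.51 against DMSO (adjusted p = 0.0509, edgeR), and 0.50 with the replicate block (adjusted p = 0.000278, edgeR). The core proteins Uqcrc1 and Uqcrc2 had log2 fold changes of 0.30 and 0.21 (adjusted p = 0.161 and 0.28, edgeR), and both were called with the block.

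Complex IV, cytochrome c oxidase, has broadly expressed subunits and isoforms that belong to particular tissues, and the isoforms differed. Of its 15 nuclear members tested 3 rose and 2 fell at 3 µM, 20% and 13.3% against 29.9% and 27.7% of all genes. Cox7a2l (GRCm38 chr17:83501919-83514333), a relative of the subunit Cox7a2 that helps to join complexes III and IV, had the smallest adjusted p of the members at 3 µM. It was at 138, 121 and 120 CPM in DMSO, 151, 139 and 132 at 1 µM, 159, 155 and 153 at 1.5 µM and 255, 256 and 227 at 3 µM. The 1.5 µM values lay above all DMSO values and the 3 µM values above both. Cox7a2l rose by 0.30 at 1.5 µM (SE 0.08, adjusted p = 0.0235, edgeR) and by 0.96 at 3 µM (SE 0.08, adjusted p = 1.24e-05, edgeR). The call at 1.5 µM was lost without any 1 of 5 libraries. These were replicate 2 of DMSO (adjusted p = 0.126), replicate 3 of DMSO (0.127), replicates 1 and 2 of 1.5 µM (0.0804 and 0.0636) and replicate 1 of 3 µM (0.0517), all with edgeR. At 3 µM the adjusted p stayed at or below 0.00015 without any 1 library. The processed pseudogene Gm6969 shares 13.8% of the 50-base stretches of Cox7a2l, so its count is uncertain to that extent.

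Cox7b, another small subunit, was at 118, 145 and 104 CPM in DMSO and 216, 235 and 145 CPM at 3 µM. Its lowest 3 µM value, in replicate 3, passed the highest DMSO value by less than 1 CPM. It rose by 0.70 on the log2 scale (SE 0.18, adjusted p = 0.00628, edgeR). Cox7a2l, Cox7b, Ndufs6, Atp5d and Uqcrh were called at 3 µM without any 1 library and with library size only. Cox7a2 had a log2 fold change of 0.48 at 3 µM (adjusted p = 0.0908, edgeR) and was called with the replicate block (adjusted p = 0.00119, edgeR). Of the other broad subunits, Cox4i1, Cox6a1, Cox8a, Cox5a and Cox5b had log2 fold changes of 0.13, 0.11, −0.02, 0.09 and 0.20, none called.

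Cox7a1 (chr7:30184171-30186028), the form of this subunit in heart, skeletal muscle and brown fat, was lower at higher doses. It was at 7.55, 9.95 and 6.36 CPM in DMSO, 5.38, 5.75 and 2.84 at 1 µM, 3.18, 3.77 and 3.24 at 1.5 µM and 1.65, 2.25 and 0.897 at 3 µM. The 3 µM values lay below all others, and Cox7a1 fell by 1.22 at 1.5 µM (SE 0.35, adjusted p = 0.0278, edgeR) and by 2.31 at 3 µM (SE 0.37, adjusted p = 0.000496, edgeR). The call at 1.5 µM was lost without DMSO replicate 2 (adjusted p = 0.0989) or any 1 of the 1.5 µM libraries (0.0918, 0.065 and 0.0676), with edgeR. Cox6a2, the muscle form of another subunit, was at 0.8, 2.44 and 3.72 CPM in DMSO and 0.0784, 0.193 and 0.483 CPM at 3 µM. It fell by 3.15 (SE 0.96, adjusted p = 0.0175, edgeR), on a mean of 17.8 counts per library. The adjusted p was 0.0594 without DMSO replicate 3, 0.0593 without replicate 1 of 3 µM and 0.0618 without replicate 2 of 3 µM (edgeR). Cox8b, also of muscle and brown fat, had 2, 3 and 34 counts in DMSO and 0 in all 3 µM libraries, where 0 counts allow up to 0.193 to 0.235 CPM by counting error. The other tissue forms were not called, and Cox6b2, known from testis, lay on the other side of 0. Cox6b2 was at 0.844, 2.03 and 1.08 CPM in DMSO and 2.43, 1.60 and 4.55 CPM at 3 µM, with overlap, and had a log2 fold change of 1.15 (adjusted p = 0.0787, and 0.0507 with the replicate block, edgeR). It was called without replicate 2 of DMSO (adjusted p = 0.0454, edgeR). Cox4i2, known from lung, was at 6.71, 6.09 and 2.64 CPM in DMSO and 0.235, 1.28 and 3.59 CPM at 3 µM, with overlap, and had a log2 fold change of −1.58 (adjusted p = 0.135, edgeR). It was called without replicate 3 of 3 µM (adjusted p = 0.0299, edgeR). DMSO replicate 3, highest for Cox6a2 and Cox8b, also had the highest striated muscle sum, 379 CPM, but the lowest Cox7a1 of the DMSO libraries. The sum of 3 brown fat markers went from 7.33 CPM in DMSO to 22.8 CPM at 3 µM, where 1 of the 2 tested markers rose and 1 fell. The part of muscle or brown fat cells was not tested. Per kilobase of exon these isoforms were minor in DMSO, with Cox7a1 at 14.9 ± 3.4 CPM (SD, n = 3) beside 124 ± 27 for Cox7a2, and Cox6a2 at 3.41 ± 2.1 beside 181 ± 35 for Cox6a1.

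Ndufa4, named for complex I but now placed in complex IV, and its paralog Ndufa4l2, known as a gene induced under low oxygen, gave the widest change of any member. Ndufa4l2 (chr10:127514939-127517152) was at 3.55, 5.38 and 9.05 CPM in DMSO, 1.47, 2.39 and 11.6 at 1 µM, 2.16, 2.38 and 77.5 at 1.5 µM and 147, 130 and 71.6 at 3 µM. At 1.5 µM replicate 3 alone was high, within the range of the 3 µM libraries. Ndufa4l2 rose by 4.27 on the log2 scale at 3 µM (SE 1.37, adjusted p = 0.0217, edgeR), a 19.3-fold difference. The adjusted p was 0.0675 without DMSO replicate 1 and 0.0659 without DMSO replicate 2 (edgeR). At 1.5 µM the log2 fold change was 2.18 (adjusted p = 0.226, edgeR), and −1.39 without replicate 3 of that group. Per kilobase, Ndufa4l2 went from 5.47 ± 2.6 to 106 ± 36 CPM and Ndufa4 from 110 ± 25 to 153 ± 37 CPM between DMSO and 3 µM (SD, n = 3). The change of Ndufa4 had an adjusted p of 0.191, and of 0.00174 with the replicate block (edgeR).

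**Figure D4:**
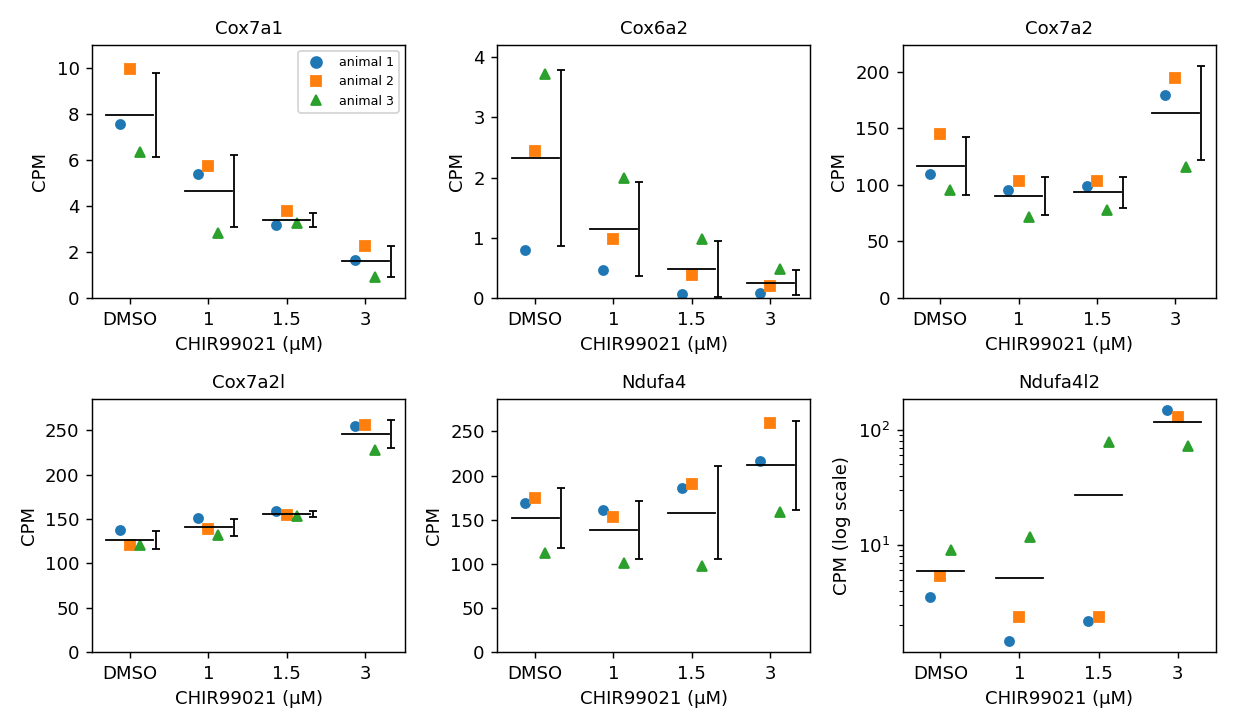
CPM of Cox7a1, Cox6a2, Cox7a2, Cox7a2l, Ndufa4 and Ndufa4l2 against CHIR99021 dose in µM, on a log axis for Ndufa4l2. Points are libraries marked by animal, lines are means and bars, on the linear axes, are the SD (n = 3). At 3 µM Cox7a1 lies below and Cox7a2l above all other libraries, and replicate 3 of Ndufa4l2 at 1.5 µM, at 77.5 CPM, lies among the 3 µM libraries.

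Complex V, ATP synthase, had 15 nuclear members tested, of which 9 rose and 0 fell at 3 µM, 60% against 29.9% of all genes. With library size only 2 rose and 0 fell, with a median of 0.21 in place of 0.42, and with the block 12 rose and 0 fell. The members called with the TMM scaling included Atp5a1, the alpha subunit of the catalytic head (log2 fold change 0.45, adjusted p = 0.0361, edgeR), which was not called with library size only (adjusted p = 0.178, edgeR), and the ring subunits Atp5g1 (0.56, adjusted p = 0.0152, edgeR) and Atp5g2 (0.43, adjusted p = 0.00297, edgeR). Atp5g2 was called without any 1 library, but shares 36.7% of its 50-base stretches with other genes, chiefly the processed pseudogene Gm10175, so its count is uncertain. Atp5g1 was lost without DMSO replicate 3 (adjusted p = 0.0501), replicate 1 of 3 µM (0.062) or replicate 2 of 3 µM (0.0794), and with library size only (0.0618, edgeR). Atp5a1 was lost without DMSO replicate 1 (0.0762), DMSO replicate 3 (0.162), replicate 2 of 1.5 µM (0.0505), replicate 1 of 3 µM (0.138) or replicate 2 of 3 µM (0.17, edgeR). The beta subunit Atp5b had a log2 fold change of 0.22 (adjusted p = 0.431, edgeR). Atp5d, the delta subunit of the central stalk, was at 131, 152 and 118 CPM in DMSO and 214, 239 and 161 CPM at 3 µM, with no overlap. It rose by 0.62 (SE 0.14, adjusted p = 0.0044, edgeR), and Cbarp overlaps it on the other strand by 2204 bases. Atp5sl carries the symbol of this complex but is an assembly factor of complex I. It was at 27.2, 23.3 and 27.7 CPM in DMSO and 18.3, 17.9 and 14.2 CPM at 3 µM, and fell by 0.63 (SE 0.13, adjusted p = 0.00218, edgeR).

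Of the mitochondrial members, mt-Co1, the catalytic subunit of complex IV, was the only one called at 3 µM without the replicate block. That is 9.09% of the 11 tested, where 57.5% of all genes were called and 29.9% rose. mt-Co1 was at 6040, 7208 and 4811 CPM in DMSO, 6422, 6536 and 5384 at 1 µM, 7121, 7541 and 7158 at 1.5 µM and 8293, 8144 and 9052 at 3 µM. All 3 µM values lay above all others, and mt-Co1 rose by 0.50 on the log2 scale (SE 0.15, adjusted p = 0.0179, edgeR). The adjusted p was 0.0808 without DMSO replicate 3, 0.0545 without replicate 1 of 3 µM, 0.0596 without replicate 3 of 3 µM and 0.117 with library size only (edgeR). In replicate 3 of 3 µM mt-Co1 made up 40.8% of mitochondrial counts, against 26.8% to 31.3% in the other 11 libraries.

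In that same library other mitochondrial genes were low. mt-Atp8, a small subunit of complex V, was at 131 CPM there and at 424 and 419 CPM in replicates 1 and 2 of 3 µM. Without this library mt-Atp8 rose by 0.92 (adjusted p = 0.00623, edgeR), and with it the log2 fold change was 0.57 (adjusted p = 0.219, edgeR). mt-Cytb, the cytochrome b of complex III, was at 4990, 5616 and 4182 CPM in DMSO and 6389, 6489 and 5472 CPM at 1.5 µM, higher in 3 of 3 cultures with overlapping ranges. mt-Nd5, a proton-pumping subunit of complex I, had a log2 fold change of −0.01 at 3 µM (adjusted p = 0.958, edgeR). mt-Nd1, at the ubiquinone end of complex I, had one of 0.30 (adjusted p = 0.332, edgeR) and was called with the replicate block (adjusted p = 0.031, edgeR). mt-Nd2 and mt-Nd4, further complex I subunits, had 0.24 and 0.13, neither called. mt-Nd6 lies on the other strand of mitochondrial DNA from the remaining members and had 0.08 (adjusted p = 0.753, edgeR). Per kilobase in DMSO the highest levels were those of mt-Cytb (4309 ± 629 CPM), mt-Co1 (3896 ± 776) and mt-Nd1 (3744 ± 972; SD, n = 3), which did not differ beyond their spread.

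The counts of 4 mitochondrial genes were near 0 in every library. mt-Co2, mt-Atp6, mt-Co3 and mt-Nd3 had between 1 and 46 counts, where the other 8 members had 1900 or more. These 4 genes each have a nearly identical copy on chromosome 1, annotated in GENCODE M21 as an unprocessed pseudogene. Other annotated genes, with the copy first among them, share 100% of the 50-base stretches of mt-Co2, 99.9% of mt-Co3, 99.5% of mt-Atp6 and 98% of mt-Nd3. The share was 62.2% for mt-Nd4, 51.1% for mt-Co1 and 0 to 8.19% for the other 6. The sources used here do not give the treatment of reads that match more than 1 place, so the level of these 4 genes cannot be read from the counts and that of mt-Nd4 and mt-Co1 is uncertain. A stretch of mt-Co2 and of mt-Nd3 is shown with its copy because a read from it has more than 1 possible origin or differs in a single letter. The mt-Co2 stretch lies in its coding exon at chrM:7323-7382 (plus strand) and its copy in Gm28661 at chr1:24615196-24615255 (minus strand). The mt-Nd3 stretch lies at chrM:9459-9518 (plus strand) and its copy in Gm28438 at chr1:24613060-24613119 (minus strand), both in GRCm38. Each is written 5′ to 3′ on the strand of its gene, with a base that differs between gene and copy in capitals.
mt-Co2: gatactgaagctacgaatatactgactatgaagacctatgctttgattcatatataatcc
Gm28661: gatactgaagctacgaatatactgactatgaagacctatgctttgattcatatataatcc
mt-Nd3: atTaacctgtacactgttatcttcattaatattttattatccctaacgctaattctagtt
Gm28438: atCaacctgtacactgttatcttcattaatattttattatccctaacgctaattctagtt
Over their aligned lengths mt-Co2 and Gm28661 had 0 differences in 681 bases, and mt-Nd3 and Gm28438 had 1 difference in 345 bases.

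**Figure D5:**
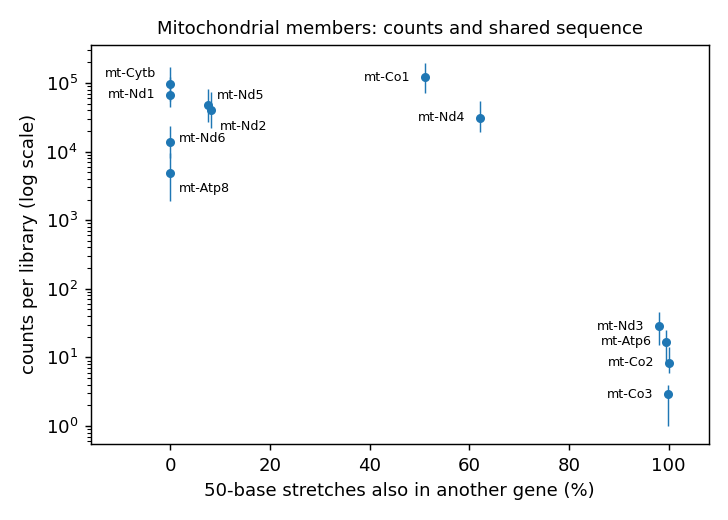
Counts per library of the 12 mitochondrial members, on a log axis, against the percentage of their 50-base stretches that also occur in another annotated gene. Points are means over 12 libraries and bars run from the lowest to the highest library. The 4 genes with 98% or more shared sequence have at most 46 counts.

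The promoters of the nuclear members were searched for letters bound by factors known to serve respiratory genes. RefSeq windows (GRCm38.p6) from 250 bases before to 50 bases after the start, 300 bases in all, were found for 65 of the 82 nuclear members, and a match on either strand was counted. The NRF1 core GCATGCGC was in 10 of 65 (15.4%) against 3.94% of 17492 protein-coding genes. The GABPA core CCGGAAG was in 16 (24.6%) against 12.9%, the YY1 core AAGATGGC in 9 (13.8%) against 3.57%, and the ERR site TCAAGGTCA in 2 (3.08%) against 0.377%. At least 1 of the 4 was in 30 of 65 members (46.2%) and in 19% of protein-coding genes. The NRF1 core can match on both strands with an overlap, and such a pair was counted once per gene. These are matches of letters and not measured sites.

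Members that changed in opposite directions at 3 µM held the same letters. Sdhb, which fell, and Atp5g2, which rose, each had the NRF1 core before their RefSeq start, and Sdhb also the GABPA core just after it. The GENCODE M21 models of Sdhb, Atp5g2, Atp5h and Atp5j start further upstream than the RefSeq starts, so that the capital letters shown for these 4 genes lie inside the coordinates of those models. Atp5e, Atp5h, Atp5j and Uqcrh, which rose, had the GABPA core before the RefSeq start, and Atp5j also the YY1 core. Of these, Atp5j had a log2 fold change of 0.42 (adjusted p = 0.0428, edgeR), which was called without replicate 3 of 1 µM or replicate 3 of 3 µM and lost without any other library (adjusted p from 0.0521 to 0.223). Atp5j also overlaps Gabpa on the other strand by 701 bases. Atp5e (0.54, adjusted p = 0.0107, edgeR) and Atp5h (0.47, adjusted p = 0.00974, edgeR) were lost without DMSO replicate 3 (0.0548 and 0.057) or replicate 2 of 3 µM (0.0564 and 0.0592). With library size only, Atp5e, Atp5h and Atp5j were not called (adjusted p = 0.0564, 0.0794 and 0.219, edgeR). Other genes, chiefly the processed pseudogene Gm10250, share 19.9% of the 50-base stretches of Atp5h, so its count is uncertain. The 60 bases around each match are shown 5′ to 3′ on the strand of the gene, with the matches in capitals, to let the members that rose be compared with Sdhb. Their places in GRCm38.p6 are chr4:140961191-140961250 for Sdhb (plus strand), chr15:102671056-102671115 for Atp5g2, chr2:174464171-174464230 for Atp5e, chr11:115419925-115419984 for Atp5h, chr16:84835005-84835064 for Atp5j and chr4:116075071-116075130 for Uqcrh (all minus strand).
Sdhb: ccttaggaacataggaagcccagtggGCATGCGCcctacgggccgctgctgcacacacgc
Atp5g2: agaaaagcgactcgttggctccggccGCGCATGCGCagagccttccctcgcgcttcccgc
Atp5e: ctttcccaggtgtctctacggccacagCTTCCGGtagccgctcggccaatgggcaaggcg
Atp5h: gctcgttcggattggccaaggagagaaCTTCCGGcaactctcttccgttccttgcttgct
Atp5j: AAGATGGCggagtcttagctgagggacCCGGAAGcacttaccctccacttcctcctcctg
Uqcrh: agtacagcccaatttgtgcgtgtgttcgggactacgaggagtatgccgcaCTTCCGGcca

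Other genes that serve the respiratory chain differed by function at 3 µM, where 29.9% of all genes rose and 27.7% fell. Of 76 tested proteins of the mitochondrial ribosome, which translates the mitochondrial members, 45 rose and 1 fell, with a median log2 fold change of 0.52 (34 and 1, median 0.32, with library size only). Of 10 genes of protein import 9 rose and 0 fell (7 and 0 with library size only), among them the receptor Tomm20 (1.11, adjusted p = 5.1e-05, edgeR) and the channel Tomm40 (0.93, adjusted p = 0.000537, edgeR). Of 23 genes of mitochondrial transcription and RNA processing 11 rose and 1 fell (7 and 2 with library size only). They included Tfam, which binds and packs mitochondrial DNA (0.44, adjusted p = 0.00339, and 0.24, adjusted p = 0.0657, with library size only, edgeR), and Lrpprc and Slirp, which stabilise mitochondrial messengers (0.75, adjusted p = 0.000436, and 0.59, adjusted p = 0.00357, edgeR). Of 10 genes of mitochondrial DNA replication 3 rose and 4 fell (1 and 5 with library size only).

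Of the 13 citric acid cycle genes other than those of complex II, 1 rose and 2 fell, with 10 below 0 and a median of −0.20. Both the replicate block and library size only gave 1 higher and 5 lower. Idh3g, a dehydrogenase subunit, fell by 0.47 (adjusted p = 0.0419, edgeR), and Suclg2, a ligase subunit of the cycle, rose by 0.66 (adjusted p = 0.000406, edgeR). Electron transfer from fatty acid oxidation enters by Etfb and Etfdh, which fell by 0.82 (adjusted p = 0.0155, edgeR) and 0.67 (adjusted p = 0.0479, edgeR). Of the ADP/ATP carriers, Slc25a4 fell by 0.47 (adjusted p = 0.00646, edgeR) and Slc25a5 rose by 0.62 (adjusted p = 0.0434, and 0.133 with library size only, edgeR). The group means of the adipocyte, endothelium, striated muscle and fibroblast marker sums fell over the same comparison, and the part of these cells in these values was not tested.

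Of 14 tested regulators 7 rose and 3 fell at 3 µM (5 and 3 with library size only). Ppargc1a, a coactivator of respiratory genes in fat and muscle, fell by 1.05 (adjusted p = 0.0102, edgeR), while its relative Pprc1 rose by 1.14 (adjusted p = 0.000678, edgeR) and Ppargc1b had a log2 fold change of −0.09 (adjusted p = 0.74, edgeR). Esrra, the receptor of the ERR site above, rose by 0.85 (adjusted p = 0.00145, edgeR), and Nrf1 rose by 0.77 (adjusted p = 0.000281, edgeR). Of 15 complex I assembly factors 3 rose and 2 fell (1 and 4 with library size only), and of 16 for complex IV 2 rose and 0 fell (1 and 4). Of 6 for complex III 2 rose and 1 fell, where Uqcc2 rose by 1.34 (adjusted p = 2.23e-05, edgeR) and Ttc19 fell by 0.60 (adjusted p = 0.00527, edgeR). The electron carrier Cycs, cytochrome c, had a log2 fold change of −0.11 (adjusted p = 0.784, edgeR) and Cyc1, cytochrome c1, of 0.32 (adjusted p = 0.275, edgeR). With the replicate block Cyc1 rose (adjusted p = 0.00762, edgeR).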

How the data were processed

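The authors deposited raw read counts for each Ensembl gene. A second deposited table, log2 of the same counts scaled to a fixed depth, was not used. The submitters' processing notes name TopHat2 2.1, Bowtie 1.1.0, HTSeq, DESeq2 and GRCm38/mm10 without their roles. Strand use in counting and the treatment of reads with several matches are not given in the sources used here. Members and gene lists were chosen with earlier results of these data known.

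Counts of all 25210 genes were filtered with filterByExpr (15316 kept), scaled by TMM and fitted in edgeR 4.0.16 (R 4.3.3) with glmQLFit (robust) and 1 mean per group over 12 libraries. Contrasts used glmQLFTest, two-sided, with Benjamini-Hochberg adjustment and a threshold of 0.05. CPM uses the TMM-scaled library size. SE is the log2 fold change over the root of F. DESeq2 1.42.0, library size only, scaling without mitochondrial genes, no filter, only the groups compared, a replicate block and leaving out each library were alternatives. The fits that left out a library did not use the block. Leaving out a library of a compared group there sets unlike animals against each other, so a lost call can also reflect differences between animals. The code was tested on simulated data. Libraries of a group differed by at least 13.2 chi-square per degree of freedom, beyond sampling noise. Intervals and floors cover counting error only.

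Replicate numbers mark animals, per the series' design text, and so pair the libraries. Deviations from group means correlated by 0.177 to 0.840 (median 0.505) in all 18 same-numbered pairs. The median of −0.212 in 36 others is no separate evidence, because deviations within a group sum to 0.

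All mitochondrial members were named, and for each dose against DMSO up to 5 called nuclear members in each direction by size with at least 50 counts on average, the core subunits, the isoform families and, of other lists, called genes by size and set regulators. Ndufa13, Uqcrh, Nrf1 and the remaining members shown with sequences or among the complex V calls were chosen after their values were seen. Exon lengths, overlaps and shared 50-base stretches came from GENCODE M21, promoters from RefSeq. Single-gene results of some genes that this rule covers are not reported here.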

Additional observations from a re-analysis of the deposited data

How the results depend on the processing

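The counts of called nuclear members moved most. With the replicate block they were 9 at 1 µM, 28 at 1.5 µM and 47 at 3 µM against DMSO, 2 for 1.5 against 1 µM and 61 for 3 against 1.5 µM, and 1 and 2 mitochondrial members were called at 1.5 and 3 µM. DESeq2 called 12 nuclear members at 1.5 µM. Without the filter on low counts 3, 16 and 13 were called at 1.5 µM, at 3 µM and for 3 against 1.5 µM, and with only the groups compared 3, 12 and 10. Library size only left 7 for 3 against 1.5 µM. Library size only and only the groups compared each left 0 mitochondrial members at 3 µM. Leaving out single libraries gave 1 to 13 nuclear members at 1.5 µM, 11 to 42 at 3 µM, 0 to 1 for 1.5 against 1 µM and 9 to 55 for 3 against 1.5 µM, and 0 to 1 mitochondrial members at 3 µM. At 1.5 µM the count was 1 without DMSO replicate 2, 13 without DMSO replicate 3, 2 without replicate 1 or 2 of 1.5 µM and 12 without replicate 3 of 3 µM. The cause was not tested. The common biological coefficient of variation was 0.305, and 0.156 with the block, which limits what 3 libraries per group can show. Of 292 log2 fold changes of named members, the block added 64 calls and lost 0, DESeq2 added 13 and lost 0, library size only added 7 and lost 35, only the groups compared lost 34, no filter lost 27 and scaling without mitochondrial genes lost 4. Over all 12 leave-one-out fits 57 were added and 207 lost, and none of these alternatives reversed a called direction.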
